A study of Mus musculus with 12 samples.

Results

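Notch signaling was described through 10 genes of the 21743 in the count table: the 4 receptors Notch1, Notch2, Notch3 and Notch4, the 3 ligands Jag1, Jag2 and Dll1, and the 3 target genes Hes1, Hey1 and Heyl. The members were taken by name, and all 10 had a row in the table. Single cells came from 2 Brca1-deficient mice (MMTV-Cre; Brca1 flox/flox, strain C57BL/6 and 129/Sv mixed) that each carried a mammary tumor, and every group shares that genotype, so no Brca1-proficient cells stand beside them. The MMTV promoter drives Cre mainly in mammary epithelium. MG1 and MG2 are the cells of the fourth pair of mammary glands of mouse 1 and mouse 2, with 2 libraries each, and MT1 (5 libraries) and MT2 (3 libraries) are the cells of their tumors. The labels state no age. Blood and endothelial cells were depleted before capture, so the few endothelial-like cells here are those that escaped depletion. Because the libraries of a group come from 1 animal, an error or a p-value over libraries covers the spread between libraries of 1 gland or tumor and not the spread between mice.

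In Notch signaling, a ligand of the Jagged or Delta family on one cell binds a Notch receptor on its neighbour. The receptor is then cut by an ADAM protease and by γ-secretase, and its freed intracellular domain joins RBPJ and Mastermind proteins on DNA to switch on target genes, of which the Hes and Hey repressors are the best known. In the mammary gland the pathway is known for its part in luminal cell fate, with Notch3 a receptor of luminal progenitors and ligands supplied by the basal layer, and in blood vessels Notch1, Notch4 and Jag1 act in endothelial cells.

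The table held 21157 cells, 818 of MG1, 2335 of MG2, 7690 of MT1, 10314 of MT2. A UMI is a molecular tag that lets each captured RNA molecule be counted once. The counts come from transcript ends, so levels of different genes were set side by side without a length correction. How evenly the ends of different genes were captured was not tested. Library medians lay between 1784 and 4842 UMIs per cell. The second library of MG1 was by far the smallest, with 105 cells. In sums over cells, fewer cells of a type and less RNA per cell cannot be told apart. Cells were clustered without any Notch pathway gene among the variable genes. Of 11 clusters, 6 were named from marker genes: secretory-like luminal, hormone-sensing-like luminal, basal-like, fibroblast-like, endothelial-like and immune-like. The other 5 were made almost wholly of tumor-library cells and are called by number: clusters 2, 3 and 4 of MT1 and clusters 0 and 1 of MT2. Epithelial markers led 6 of 6 in cluster 3 and 3 of 6 in cluster 2, and none in clusters 0, 1 and 4, where the tissue label was thus not borne out by epithelial genes. Cluster 4 was led by mesenchymal markers, 4 of 8. The tumor clusters held 61 gland cells, 44 of them MG2 cells in cluster 4. The doublet caller marked 44 cells (0.208%) and was not used. Any 2 libraries shared between 0 and 7 barcodes. Brca1 itself was low, at 0 to 16.5 CPM (a gene's UMIs over all UMIs of the summed cells, on the usual CPM scale) across the 12 libraries, and counts from transcript ends do not tell whether the floxed exons were lost.

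The ligand genes carried the clearest cell-type pattern in the glands, and the DNA before the starts of the 2 most abundant ligands is shown for that reason. Dll1 lies on chromosome 17 (GRCm38 chr17:15367354-15376872, minus strand) and Jag1 on chromosome 2 (chr2:137081456-137116644, minus strand), both protein-coding. RefSeq promoter windows were found for 7 of the 10 members, not for Hes1, Hey1 or Heyl. Below, Dll1 is shown over the 250 bases before its outermost RefSeq start (GRCm38.p6 chr17:15376933-15377182, minus strand), and Jag1 over 30 bases (chr2:137116585-137116614, minus strand). Capitals mark CAGCTG, an E-box, the kind of site bound by basic helix-loop-helix proteins, whose letters read the same on both strands. Its first base lies 132 bases before the RefSeq start in Dll1 and 82 bases before it in Jag1. The annotations differ on the Jag1 start: GENCODE places it further out, at 137116644, so the Jag1 stretch shown lies before the RefSeq start (137116520) but inside the first bases of the GENCODE gene.
Dll1: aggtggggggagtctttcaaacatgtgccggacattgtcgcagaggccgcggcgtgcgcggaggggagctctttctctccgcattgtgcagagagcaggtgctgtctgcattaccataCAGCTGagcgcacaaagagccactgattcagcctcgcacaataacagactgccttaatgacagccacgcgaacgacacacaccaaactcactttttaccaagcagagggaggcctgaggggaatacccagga
Jag1: ccgcgtttcatgCAGCTGatctgaaaggga
This E-box was in 13.0% of all 32851 RefSeq windows of that length and in none of the other members' windows. The letters TGGGAA, the core that RBPJ binds, searched on both strands, were in 21.6% of all windows and in none of the windows of these 7 members. The AP-1 letters TGANTCA, searched on both strands, were in 6.75% of all windows and once in the Dll1 window, in none of the other members' windows. Such matches describe the letters and are not evidence of binding.

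Among the epithelial cells of the glands, Dll1, the Delta-type ligand, was a gene of basal-like cells, and endothelial-like cells held it too. Its level in basal-like cells was 95.4 CPM in MG1 replicate 1, 90.8 in MG1 replicate 2, and, for the MG2 pair, 126 and 114.5. In secretory-like cells the same 4 libraries gave 1.07, 0, 3.81 and 5.32 CPM, and in hormone-sensing-like cells 2.38, 0, 2.34 and 7.59 CPM. Every basal-like library lay far above every luminal-like one, and the classes did not overlap. The mean over the 4 gland libraries was 107 ± 16.7 CPM (SD, n = 4) in basal-like cells, 2.55 ± 2.45 in secretory-like and 3.08 ± 3.21 in hormone-sensing-like cells. Basal-like cells were 12.2% of the gland cells and held 125 of the 187 Dll1 UMIs of the glands, or 66.8%. Endothelial-like cells had 59.4 CPM in MG1 replicate 1 and, in the MG2 pair, 40.0 and 105 CPM, a mean of 68.1 ± 33.3 (SD, n = 3) that overlapped the basal-like range. They were 3.43% of the gland cells and held 12.8% of the Dll1 UMIs. Basal markers were present in the endothelial-like cells too: Krt14, Krt5 and Acta2 were at 270.3, 57.2 and 114.5 CPM in those of MG2, against 1415, 420.3 and 867 CPM in its basal-like cells. In those of MG1, Krt14 was at 42.6 CPM and Krt5 and Acta2 were at 0. The part of this in the Dll1 and Jag1 levels of endothelial-like cells was not tested. A Dll1 UMI was seen in 27 of 129 basal-like cells of MG1 (20.9%, exact Clopper-Pearson 95% interval 14.3 to 29.0%) and in 66 of 255 of MG2 (25.9%, 20.6 to 31.7%). In fibroblast-like cells, taken as a class without Dll1, it was seen in 0 of 126 cells of MG1, which allows a share of up to 2.38% (3 counts of the total), at a median of 3222.5 UMIs per cell against 2665 in the basal-like cells. Intervals and limits of this kind cover counting error only. When each cell was thinned to 800 UMIs, the share was 7.26% in MG1 basal-like cells and 8.80% in MG2.

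Jag1, the Jagged ligand, was also highest in basal-like cells among the 3 epithelial classes, and endothelial-like cells reached similar levels, at 99 CPM in MG1 replicate 1 and 260 and 419.5 CPM in the MG2 pair. Basal-like cells held 134, 469, 389 and 396 CPM in MG1 replicates 1 and 2 and MG2 replicates 1 and 2. Hormone-sensing-like cells held 30.9, 52.5, 30.5 and 43.6 CPM in the same libraries, and secretory-like cells 11.8, 5.29, 16.3 and 14.4 CPM. The 3 epithelial classes stood in the same order in each library, basal-like first and secretory-like last. MG1 replicate 1 had a lower basal-like level than the other 3 gland libraries. Basal-like cells held 46.7% of the 767 Jag1 UMIs of the glands, and endothelial-like cells, 3.43% of the cells, held 14.7%.

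Jag2, the second Jagged ligand, was rare, with 11 UMIs in the basal-like cells of all 4 libraries. Its basal-like levels were 8.94, 30.3, 5.06 and 12.4 CPM in the 4 gland libraries, against at most 2.66 CPM in any luminal-like library. These levels rest on 2 to 4 UMIs per library. Without MG2 replicate 2 the order was the same in the other 3 libraries, but under 10 UMIs were then left over the 3 epithelial classes, too few for Jag2 to be counted.

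Counted over genes, 3 of the 9 members with at least 10 UMIs in these classes, the 3 ligands, were higher in basal-like cells than in both luminal-like classes in each of the 4 gland libraries, while 7.65% of all 14385 genes were. Jag2 had 8 UMIs in the luminal-like cells and reached 10 through the basal-like cells, where it is high, so the count says nothing of Jag2. Notch3 and Hes1, 2 of 9, were lower in each, against 10.1% of all genes. Cells were grouped by their expression, so these class contrasts are given without a test.

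**Figure D1:**
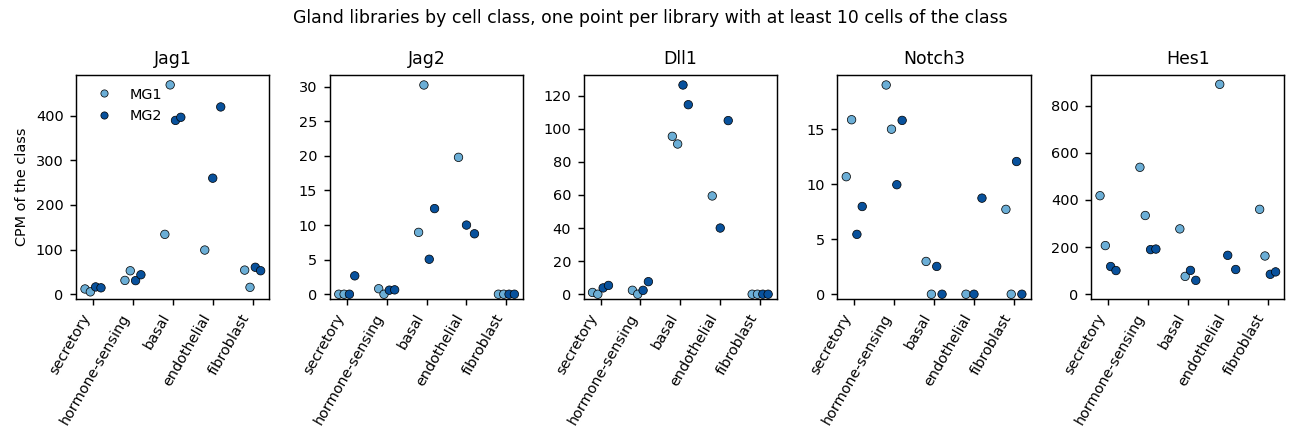
Levels (CPM of the summed cells of a class) of Jag1, Jag2, Dll1, Notch3 and Hes1 in the gland libraries, one point per library with at least 10 cells of the class, light for MG1 and dark for MG2. The basal-like points of Dll1 sit between 90.8 and 126 CPM, above every luminal-like point, while Notch3 shows the reverse order at a much lower level.

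Among the receptors, Notch3 was the one tied to luminal-like cells. Its level in hormone-sensing-like cells was 19.0, 15.0, 9.96 and 15.8 CPM in MG1 replicates 1 and 2 and MG2 replicates 1 and 2. Secretory-like cells held 10.7, 15.9, 5.45 and 7.98 CPM, and basal-like cells 2.98, 0, 2.53 and 0 CPM. The 2 luminal-like classes overlapped one another, and every basal-like value lay below every luminal-like value. The 2 luminal-like classes together held 108 of the 116 Notch3 UMIs of the glands, and basal-like cells held 2.

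Notch1, the most abundant receptor of the glands, did not separate the epithelial classes. Its means over the 4 gland libraries were 37.7 ± 26.3 CPM (SD, n = 4) in secretory-like, 33.6 ± 4.97 in hormone-sensing-like and 49.3 ± 22.5 in basal-like cells, closer together than their spread. Endothelial-like cells stood above them, with 237.5 CPM in MG1 replicate 1 and, in the MG2 pair, 115 and 131. Notch1 was the 1 member of 10 that was higher in endothelial-like cells than in all 3 epithelial classes in each of these 3 libraries, where 5.76% of 14452 genes were. None of the members was lower in each, against 9.54% of genes.

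Notch2 was even across the epithelial classes of the glands, with means of 18.2 ± 7.50 CPM in secretory-like, 13.4 ± 5.82 in hormone-sensing-like and 19.7 ± 12.5 in basal-like cells (SD, n = 4). Fibroblast-like cells of the glands held more of it, 44.5 ± 11.4 CPM (SD, n = 4), with a lowest library of 30.2 CPM. Notch4, known as an endothelial receptor, gave 14.2 CPM in endothelial-like cells of MG1 and 15.9 in MG2, from 1 and 5 UMIs, and 1 UMI in the 262 gland fibroblast-like cells.

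Hes1, the main Hes repressor downstream of Notch, was the most abundant member of the glands. In hormone-sensing-like cells it was at 538.5, 334, 189 and 192 CPM in MG1 replicates 1 and 2 and MG2 replicates 1 and 2, in secretory-like cells at 418, 206, 118 and 100.5 CPM, and in basal-like cells at 277, 75.6, 101 and 58.8 CPM. Within each library the order was hormone-sensing-like, then secretory-like, then basal-like. The levels of the classes overlapped between libraries, and MG1 replicate 1 was highest in all 3. Hes1 and Jag1 were the 2 of 8 members that were higher in hormone-sensing-like than in secretory-like cells in each of the 4 gland libraries. This is near the share of all genes, 24.1% of 13990. None was lower in each, against 13.9%. Of the 16 Heyl UMIs in these 2 classes, 15 were in secretory-like cells, so Heyl entered the 8 through that class.

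Hey1 and Heyl, the Hey-family targets, leaned toward secretory-like cells. Hey1 was at 26.7, 0, 8.17 and 14.9 CPM in secretory-like cells of the 4 gland libraries and at 2.38, 0, 7.62 and 4.43 CPM in hormone-sensing-like cells. Where it was seen, the secretory-like value was the higher one, and the luminal-like cells of MG1 replicate 2 had no Hey1 UMI. Secretory-like cells held 68 of the 102 Hey1 UMIs of the glands. Heyl had 17 UMIs in the glands, all in MG2, and 15 of them were in 14 of the 896 secretory-like cells of MG2 (1.56%, exact 95% interval 0.857 to 2.61%). In the 255 secretory-like cells of MG1 it was not seen, which allows a share of up to 1.18%.

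In the tumor of mouse 1 the levels of some members differed between clusters, and the counts given below lie near the shares of all genes. Hes1 was at 50.6 to 163 CPM in cluster 4 over the 5 libraries, 138 to 266 in cluster 3 and 181 to 369 in cluster 2, and within each library cluster 4 was the lowest. Jag1 ran the other way, with 53.3 to 83.1 CPM in cluster 4, 32.5 to 50.4 in cluster 3 and 5.42 to 18.1 in cluster 2. Notch2 was at 16.0 to 33.1 CPM in cluster 4 and at 6.54 to 15.9 in the other 2 clusters, with almost no gap in MT1 replicate 1 (16.0 against 15.9 and 15.7). Jag1 and Notch2, 2 of the 9 members counted, were thus higher in cluster 4 than in clusters 2 and 3 in each MT1 library, against 14.4% of 14739 genes. Hes1, 1 of 9, was lower in each, against 13.4%. Dll1 did not separate these clusters, at 5.94, 6.06 and 6.00 CPM in the summed cells of clusters 2, 3 and 4.

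In MT2, cluster 0 and cluster 1, which was led by cell cycle genes, held 97.3 and 85.6 CPM of Jag1, 47.3 and 36.8 of Notch2 and 17.0 and 14.8 of Notch1. Within each of the 3 libraries Jag1 and Notch2 were higher in cluster 0, while Notch1 was higher there in 2 of 3. Hes1 was lower in cluster 0 in each, at 17.4 to 23.1 CPM over the 3 libraries against 27.5 to 28.8 in cluster 1. Notch4, at 2.33 to 3.15 against 1.44 to 1.69 CPM, and Notch3, at 0.5998 to 1.03 against 0.288 to 0.564 CPM, were higher in cluster 0 in each library. The Notch3 values of cluster 1 rest on 2 or 3 UMIs per library. Hey1 and Jag2 were also higher in cluster 0 in each library, from 1 to 5 UMIs per library and cluster, and Dll1 was mixed. These cluster levels were not tested. The share of all genes that keep such an order was not counted, so the orders say nothing particular about the members. In other MT2 cells Notch2 was similar, with 48.9 CPM in fibroblast-like and 47.7 in immune-like cells. The share of cells with a Notch2 UMI was 15.3% in cluster 0 at a median of 2942 UMIs and 11.2% in immune-like cells at a median of 2285 UMIs. After thinning to 800 UMIs the shares were 3.56% and 3.23%. The 45 endothelial-like cells of MT2 held 1 Notch2 UMI, or 7.48 CPM. How far RNA set free from tumor cells entered these Notch2 values was not tested. Jag1 was also seen in immune-like cells, at 58.7 CPM, and Hes1 at 5.51 CPM, from 3 UMIs.

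**Figure D2:**
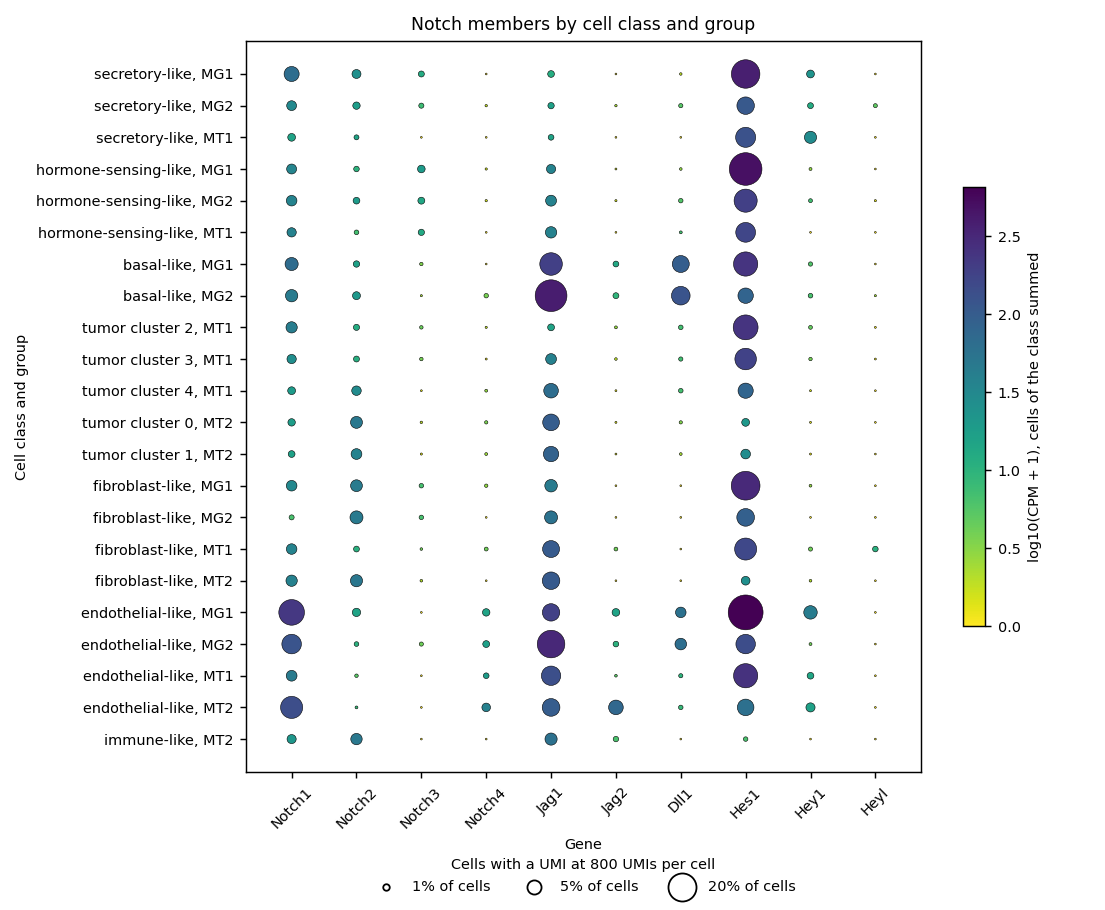
Members (columns) in each cell class and group with at least 20 cells (rows). Color gives log10(CPM + 1) of the summed cells and dot area the share of cells with a UMI after thinning to 800 UMIs per cell. Dll1 stands out in basal-like and gland endothelial-like cells, Notch1 in the endothelial-like cells of MG1, MG2 and MT2 but not of MT1, and Hes1 is pale in both MT2 tumor clusters.

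To ask how Notch genes differed between tumor and gland, UMIs were summed per library over the 20025 cells left when the stromal (fibroblast-like, endothelial-like, immune-like) clusters were set aside and tested with edgeR. The levels given here are CPM scaled by TMM, a correction for library composition. Of the 10 members, 8 passed the low-count filter, and Notch4 and Heyl did not. In the comparison of MT1 with MG1, 5 of the 8 fell, 0 rose and 3 did not pass the test, where 27.1% of the 13652 genes tested fell and 32.2% rose. In MT2 against MG2, 6 of the 8 fell and 2 rose, where 34.3% of all genes fell and 32.7% rose. The median log2 fold change of the 8 was -0.92 in mouse 1 and -2.18 in mouse 2, beside 0.11 and -0.05 over all genes tested.

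Notch3 fell in both tumors. It was at 14.6 and 12.1 CPM in the MG1 libraries and at 0.588, 3.53, 2.66, 2.35 and 3.79 CPM in the MT1 libraries. MG2 held 6.70 and 9.41 CPM, and MT2 held 0.737, 0.460 and 0.865 CPM. No tumor library reached the lowest library of its gland. The log2 fold change was -2.35 ± 0.40 (SE, edgeR adjusted p = 7.01e-05) in mouse 1 and -3.51 ± 0.39 (edgeR adjusted p = 3.09e-07) in mouse 2. The difference between the mice, 1.17 ± 0.55, did not pass the test (edgeR adjusted p = 0.0973).

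Notch2 went apart in the 2 tumors. MT2 held 48.2, 36.4 and 48.5 CPM of it, against 20.8 and 14.6 in MG2, and the groups did not overlap. It rose by a log2 fold change of 1.33 ± 0.21 (edgeR adjusted p = 1.82e-05), or 2.51-fold. MT1, at 12.2 to 16.1 CPM, lay within the range of MG1, at 20.0 and 10.4 CPM. There the log2 fold change was -0.28 ± 0.27 (edgeR adjusted p = 0.383). The 2 effects differed by -1.60 ± 0.34 (edgeR adjusted p = 0.00102), a difference that was -0.77 without MG1 replicate 1 and then did not pass (edgeR adjusted p = 0.394). Without that library the difference for Notch1 passed instead, at 1.52 (edgeR adjusted p = 0.00573), where with it the value was 0.35 ± 0.33 (edgeR adjusted p = 0.421).

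Notch1 was at 60.8 and 22.5 CPM in MG1 and at 29.0 to 39.9 CPM in MT1, so the groups overlapped. Its log2 fold change was -0.54 ± 0.24 (edgeR adjusted p = 0.0600). The 2 MG1 libraries pulled in opposite directions: without replicate 1 the value was 0.67 (edgeR adjusted p = 0.174), and without replicate 2 it was -0.86 and passed (edgeR adjusted p = 0.00136). Notch1 also passed with RLE scaling, at -0.66, with DESeq2, at -0.61, and without MT1 replicate 5, at -0.60. For Notch2 the call changed when all cells were summed, at -0.54 (edgeR adjusted p = 0.0498). In mouse 2, MG2 held 28.5 and 33.9 CPM and MT2 18.1, 14.1 and 18.2 CPM, and Notch1 fell by 0.89 ± 0.23 on the log2 scale (edgeR adjusted p = 0.00218). Without MG2 replicate 2 that value was -0.55 and did not pass (edgeR adjusted p = 0.123).

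Notch4 was not tested, having 1 UMI in MG1, 7 UMIs in MG2, 16 UMIs in MT1 and, in MT2, 89. The libraries held 0.416 and 0 CPM in MG1, 0.958 and 0.706 in MG2, 0 to 1.46 in MT1, and 2.28, 2.37 and 2.12 in MT2. The 3 MT2 libraries were above all 9 others. Pecam1 and Cdh5, defining endothelial genes, were at 0.399 and 0.178 CPM in the summed cells of MT2 cluster 0, against 599 and 441.5 CPM in the endothelial-like cells of MT2.

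Because the receptors were counted by UMIs from transcript ends, their shares of all receptor UMIs were set side by side without a length correction. Notch1 made up 56.7 ± 9.53% (SD, n = 2) of them in MG1, 53.9 ± 5.54% (n = 2) in MG2 and 65.0 ± 3.64% (n = 5) in MT1, but 26.2 ± 0.22% (n = 3) in MT2. Notch2 made up 21.98, 30.7 and 28.4% on average in MG1, MG2 and MT1 and 69.2 ± 0.78% in MT2. Notch2 was thus the leading receptor in the 3 MT2 libraries and Notch1 in the other 9. By class, the lead of Notch2 was not particular to MT2. In the summed cells of MT1 cluster 4 Notch2 was at 28.7 CPM against 18.3 of Notch1. In clusters 2 and 3 Notch1 led, at 41.8 and 26.3 CPM against 11.1 and 10.4. Of the fibroblast-like cells, outside these shares, those of the glands held 44.5 CPM of Notch2 and 14.4 of Notch1, and those of MT1 9.64 and 35.3. Notch3 went from 21.1 and 13.9% in the glands to 5.02% in MT1 and 1.06% in MT2. Among the ligands Jag1 led in every library, from 70.5% in MG1 replicate 1 to 97.7% in MT2, while Dll1 went from 18.5 and 20.2% in the glands to 16.5% in MT1 and 2.13% in MT2. These shares are descriptions and were not tested.

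**Figure D3:**
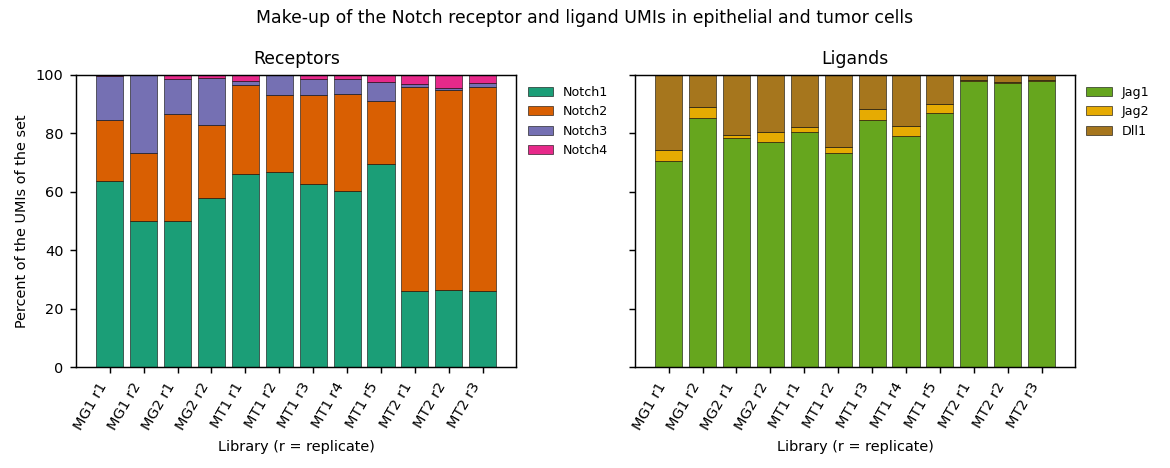
Percent of all Notch receptor UMIs (left) and ligand UMIs (right) that each gene held, one bar per library, over epithelial and tumor cells. Notch2 takes more than 68% of the receptor bar in the MT2 libraries and less than 37% in every other library.

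Jag1 showed opposite changes in the 2 tumors. It was at 40.8 and 79.5 CPM in MG1 and at 28.8, 26.7, 33.4, 32.3 and 38.2 CPM in MT1, all below both gland libraries. The log2 fold change was -0.75 ± 0.23 (edgeR adjusted p = 0.00944), and it was -0.32 and did not pass without MG1 replicate 2 (edgeR adjusted p = 0.233). MG2 held 56.7 and 53.9 CPM and MT2 held 109.7, 82.6 and 94.8 CPM, again without overlap, and Jag1 rose by 0.79 ± 0.20 (edgeR adjusted p = 0.00233). The difference between the mice was -1.54 ± 0.31 (edgeR adjusted p = 0.000564).

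Dll1 fell in both. MG1 held 15.0 and 10.4 CPM and MT1 6.46, 9.02, 4.69, 7.25 and 4.37 CPM. MG2 held 14.8 and 13.9 CPM and MT2 2.06, 2.30 and 1.81 CPM. No tumor library overlapped its gland. The log2 fold changes were -1.15 ± 0.32 (edgeR adjusted p = 0.00554) and -2.79 ± 0.28 (edgeR adjusted p = 7.35e-08), and they differed by 1.64 ± 0.42 (edgeR adjusted p = 0.00431). Without MG1 replicate 1 the value in mouse 1 was -0.635 and did not pass (edgeR adjusted p = 0.443).

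The cells that were summed differed between gland and tumor: basal-like cells made up 19.3% of the gland cells tested in MG1 and 12.1% in MG2, while the tumor libraries of MT1 held 4 basal-like cells and those of MT2 none. The part of this in the fall of Dll1 and Jag1 was not tested on its own. When tumor-cluster cells were compared with the luminal-like gland cells alone, which leaves out cells on both sides, Dll1 in mouse 1 turned to a rise of 1.92 on the log2 scale (edgeR adjusted p = 0.0212), and Jag1 to 0.23 (edgeR adjusted p = 0.392). In mouse 2 the same comparison left Dll1 lower, at -1.15 (edgeR adjusted p = 0.0179), and gave Jag1 a larger rise of 1.95 (edgeR adjusted p = 3.55e-08). Notch3, Hes1 and Hey1 stayed lower against luminal-like cells, at -2.67, -1.065 and -1.91 in mouse 1 and -3.72, -2.55 and -4.74 in mouse 2, each past the threshold of edgeR. By cluster, Dll1 was at 5.94 to 6.06 CPM in the 3 clusters of MT1 and at 0.889 and 1.96 CPM in the luminal-like classes of MG1, the latter from 1 and 3 UMIs.

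Jag2 was at 2.08 and 3.46 CPM in MG1 and 0.588 to 1.46 CPM in MT1, with a log2 fold change of -0.95 ± 0.72 (edgeR adjusted p = 0.265). In mouse 2 it went from 0.718 and 2.35 CPM to 0.589, 0.153 and 0.393 CPM and fell by 1.96 ± 0.63 (edgeR adjusted p = 0.0103). That call rested on MG2 replicate 2, since without it the value was -0.68 (edgeR adjusted p = 0.595).

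**Figure D4:**
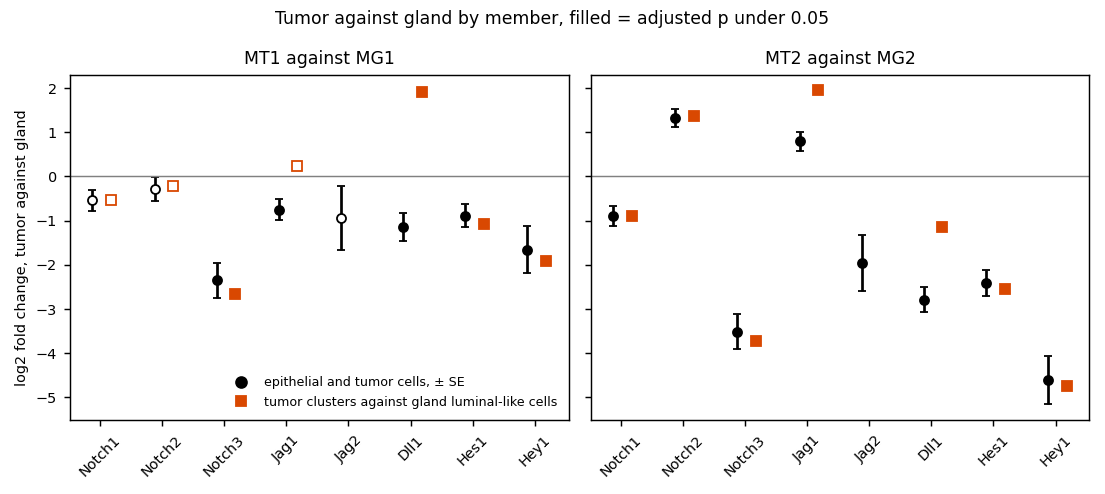
Log2 fold change of tumor against gland for the 8 members tested, mouse 1 on the left and mouse 2 on the right. Black circles (± SE) compare all epithelial and tumor cells, orange squares compare tumor clusters with gland luminal-like cells, and filled symbols passed an adjusted p of 0.05. Dll1 is below 0 as a circle and above 0 as a square in mouse 1, whereas Notch3, Hes1 and Hey1 keep their places.

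Hes1 fell in both tumors, and more in mouse 2 than in mouse 1. It was at 139 and 122 CPM in MG2 and at 23.8, 23.7 and 26.1 CPM in MT2, a log2 fold change of -2.41 ± 0.29 (edgeR adjusted p = 7.26e-07), or 5.31-fold lower. After thinning to 800 UMIs, a Hes1 UMI was found in 9.90 ± 0.42% (SD, n = 2) of MG2 cells and in 1.83 ± 0.09% (n = 3) of MT2 cells. In mouse 1 it was at 491 and 230 CPM in MG1 and at 172, 302, 150, 230 and 149.7 CPM in MT1, and the groups overlapped. The log2 fold change of -0.89 ± 0.26 passed (edgeR adjusted p = 0.00629) but was -0.08 without MG1 replicate 1 (edgeR adjusted p = 0.847). The 2 effects differed by 1.52 ± 0.40 (edgeR adjusted p = 0.00455).

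The 3 genes whose pattern was most like that of Hes1 were Jun, Jund and Atf3, immediate early and stress genes that tissue dissociation is known to induce. Jun was at 3465 CPM in MG1 replicate 1, 855 in MG1 replicate 2, 1440 and 1220 in MG2, 844 to 1334 in MT1 and 184 to 190.2 in MT2. Its highest and lowest libraries were those of Hes1. Fos, of the same family and chosen after its values were seen, ran from 196.5 to 235.5 CPM in MT2 and from 1045 to 2834 CPM in the other 9 libraries. The part of these genes in the Hes1 result was not tested.

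Hey1 fell in both tumors. It was at 12.5 and 0 CPM in MG1, 1.76, 1.18, 2.97, 3.33 and 4.08 in MT1, 6.94 and 8.94 in MG2, and 0.221, 0.383 and 0.315 in MT2. In mouse 2 the groups did not overlap, and the log2 fold change was -4.61 ± 0.55 (edgeR adjusted p = 6.64e-07), the largest of the 8 members tested. In mouse 1 it was -1.65 ± 0.52 (edgeR adjusted p = 0.0112), although the 30 Hey1 UMIs of MG1 all came from replicate 1 and replicate 2 had none. Heyl was not tested; in the same cells MG2 held 17 Heyl UMIs and MT1 2, while MG1 and MT2 held 0. Of the 17 in MG2, 13 came from replicate 1 and 4 from replicate 2.

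**Figure D5:**
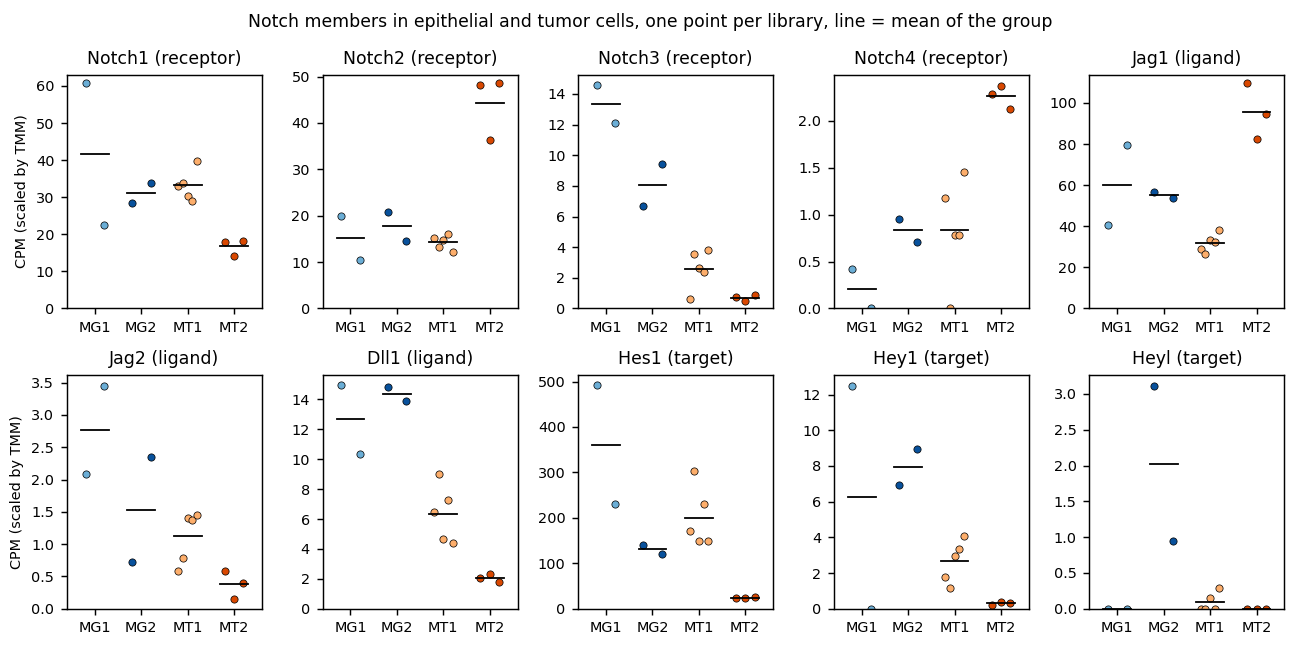
CPM (scaled by TMM) of each member in epithelial and tumor cells, one point per library, with a line at the mean of the group. By group mean MT2 is highest for Notch2, Notch4 and Jag1 and lowest for Notch1, Notch3, Dll1, Jag2, Hes1 and Hey1, and the 2 MG1 points lie far apart for Notch1, Hes1 and Hey1.

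Over the members, the difference between the mice in the tumor-gland change passed the test for 5 of the 8, with Dll1, Hes1 and Hey1 more positive in mouse 1 and Notch2 and Jag1 more negative, where 26.4% of all genes were more positive and 17.1% more negative. Hey1 had the largest difference, 2.95 ± 0.77 (edgeR adjusted p = 0.00458). The direct comparison of the 2 tumors, which shares its libraries with the comparisons above, called all 8: 6 were higher in MT1 and 2 lower, against 35.3% and 33.1% of all genes. Hey1 (3.14 ± 0.54, edgeR adjusted p = 5.02e-05) and Hes1 (3.03 ± 0.26, edgeR adjusted p = 8.45e-09) differed most. Notch3 was higher in MT1 by 1.94 ± 0.39, Jag2 by 1.64 ± 0.52, Dll1 by 1.58 ± 0.26 and Notch1 by 0.98 ± 0.19 on the log2 scale. Notch2 (-1.62 ± 0.16) and Jag1 (-1.57 ± 0.16) were lower in MT1. With all cells summed, Jag2 was at 0.89 and did not pass (edgeR adjusted p = 0.101).

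With the mouse as the replicate, that is, 1 sum per gland and tumor and the mouse as a block, edgeR called 0 of the 14946 genes (0.0%), members included. At an unadjusted p under 0.05 it gave 2219 of these genes and 2 of the 9 members tested. DESeq2 called 1337 genes and 1 of the 9 members, Hes1 (DESeq2 adjusted p = 0.0465). With so few members, neither count lies far from the share of all genes. The values of the edgeR fit were -2.89 ± 0.77 for Notch3, -1.73 ± 0.48 for Hes1, -3.13 ± 1.15 for Hey1, -1.94 ± 0.74 for Dll1, 0.58 ± 0.65 for Notch2 and 0.19 ± 0.54 for Jag1, on the log2 scale. Notch1 was at -0.74 ± 0.43, Jag2 at -1.39 ± 1.19 and Notch4 at 1.46 ± 1.28.

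The 248 endothelial-like cells (20 of MG1, 88 of MG2, 95 of MT1, 45 of MT2) had 11 of 11 endothelial markers, and 10 libraries had at least 10 of them. With mouse and tissue in the model, 14.1% of the 1783 genes tested were higher in tumor vessels and 17.4% lower. Of the members, 2 had counts enough to be tested, and both were called lower. Hes1 was at 890.5 CPM in MG1 replicate 1, 165 and 105 in MG2, 557, 183, 250 and 29.4 in MT1, and 45.4, 0 and 150 in MT2. The groups overlapped, and the log2 fold change was -1.82 ± 0.49 (edgeR adjusted p = 0.0102). Without MG1 replicate 1, whose 15 cells held 45 Hes1 UMIs, it was -1.24 (edgeR adjusted p = 0.221), and with libraries of at least 5 cells -1.33 (edgeR adjusted p = 0.0651). Jag1 was at 99 CPM in MG1 replicate 1, 260 and 419.5 in MG2, 242, 70.4, 176 and 117 in MT1, and 121, 117 and 30.01 in MT2, with a log2 fold change of -1.19 ± 0.44 (edgeR adjusted p = 0.0477). Over the 10 fits that left out 1 library the value ran from -0.79 to -1.83, and the call held only without MG1 replicate 1 or without MT1 replicate 2. With RLE scaling it was -1.17 (edgeR adjusted p = 0.0522). In the 195 cells left after removing sub-clusters led by tumor-cell or fibroblast genes, an alternative chosen after seeing the data, Jag1 was at -1.142 (edgeR adjusted p = 0.138) and Hes1 at -1.48 (edgeR adjusted p = 0.0349). The groups also differed in the sub-clusters left. The sub-cluster led by Esm1 held 1, 9, 54 and 29 cells of MG1, MG2, MT1 and MT2. That led by Glycam1 held 1, 30, 0 and 0. That led by Cd36 held 16, 52, 7 and 0, with 71 of its 75 cells endothelial-like. The part of these sub-clusters in the Hes1 and Jag1 changes was not tested.

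The other members were too sparse in endothelial-like cells for a test. The groups differed in how many of these cells lay in the sub-clusters led by tumor-cell or fibroblast genes: without them 18 of 20 cells were left in MG1, 87 of 88 in MG2, 61 of 95 in MT1 and 29 of 45 in MT2. Epcam, an epithelial gene, was at 469, 591.5, 1147 and 7.48 CPM in the endothelial-like cells of MG1, MG2, MT1 and MT2. The levels and shares that follow use all endothelial-like cells. The part in them of this mix, and of the sub-clusters given above, was not tested. Notch1 was at 115 to 237.5 CPM in the gland libraries, 87.8 to 166 in the 3 MT2 libraries and 0 to 70.4 in the 4 MT1 libraries, from 0 to 23 UMIs per library. Dll1 gave 23 UMIs in the 3 gland libraries, 2 in the 4 MT1 libraries and 1 in the 3 MT2 libraries. Jag2, known as an arterial ligand too, was seen in 9 of 45 endothelial-like cells of MT2 (20.0%, exact 95% interval 9.58 to 34.6%), in 1 of 20 of MG1 (5.0%, 0.127 to 24.9%), in 3 of 88 of MG2 (3.41%, 0.709 to 9.64%) and in 1 of 95 of MT1 (1.05%, 0.0267 to 5.73%). These intervals cover counting error over the cells of 1 animal per group and do not compare the groups. The MT2 share of Jag2 rests on 10 UMIs. In clusters 0 and 1 of MT2 Jag2 was at 0.399 and 0.326 CPM. Notch4 was seen in 5 of 45 endothelial-like cells of MT2 (11.1%, 3.71 to 24.1%), in 3 of 95 of MT1 (3.16%, 0.656 to 8.95%), in 1 of 20 of MG1 and in 4 of 88 of MG2 (4.55%, 1.25 to 11.2%).

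Of the 35 other Notch pathway genes tested (modifiers, protease subunits, nuclear partners, inhibitors and further targets), 3 rose and 15 fell in MT1 against MG1 and 8 rose and 17 fell in MT2 against MG2, where 32.2% and 32.7% of all genes rose and 27.1% and 34.3% fell. Their median log2 fold changes were -0.47 and -0.05. Of the 9 genes of the nuclear complex, 6 fell in mouse 1 and 7 in mouse 2 and 0 rose, beside the same shares of all genes. Rbpj, Maml3 and Snw1 did not pass in mouse 1, nor Maml2 and Maml3 in mouse 2. Of the 9 cleavage genes, 4 fell in each mouse, which is near the share of all genes in mouse 2. Aph1c, a γ-secretase subunit, fell most in both, by 2.68 ± 0.63 in mouse 1 and 2.80 ± 0.37 in mouse 2 on the log2 scale. Dtx3, of the Deltex family, fell by 2.39 ± 0.33 in mouse 1 and by 2.06 ± 0.23 in mouse 2. Hes6, an atypical Hes gene, rose by 1.73 ± 0.31 and 0.78 ± 0.25, and Dtx2 by 1.21 ± 0.36 and 1.17 ± 0.26. In mouse 2 Pofut1, the O-fucosyltransferase that Notch receptors need, rose by 1.34 ± 0.28 and Numbl, a relative of the Notch inhibitor Numb that fell by 1.51 ± 0.50 in mouse 1, by 1.17 ± 0.31, while Neurl1a, a ubiquitin ligase for ligands, fell by 2.29 ± 0.50.

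The mice differed in 4 of these 35 genes toward a more positive change in mouse 1 and in 8 toward a more negative one, beside 26.4% and 17.1% of all genes. Numbl (-2.69 ± 0.60) and Pofut1 (-1.82 ± 0.52) were the most negative and Snw1, a nuclear partner of the Notch complex, was positive at 1.05 ± 0.21. Neurl1a had 0 UMIs in MG1 and 10 in MT1, so no difference is given for it, although it is 1 of the 4 counted as more positive. Between the tumors, 7 of the 35 were higher in MT1 and 12 lower, beside 35.3% and 33.1% of all genes, led by Hes6 (1.17 ± 0.17) and Fbxw7, which marks the Notch intracellular domain for decay (1.06 ± 0.14), and by Numbl (-2.48 ± 0.27) and Pofut1 (-1.86 ± 0.22).

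Over 23 sums of cell class by group, the genes most like each member by Pearson's r of log2(CPM + 10) were named among 13919 genes. These r are descriptions over profiles that share libraries. Notch4 was most like Esam, Egfl7 and Adgrl4 (r of 0.95, 0.95 and 0.94), which are genes of endothelial cells. Its match rests on few UMIs: 1, 5, 4 and 5 in the endothelial-like cells of MG1, MG2, MT1 and MT2. Dll1 was most like Pgm5, Rab27a and Npy (0.96, 0.92 and 0.90), of which Npy was among the leading genes of the basal-like cluster. Notch3 was most like Tmem30b, Eml2 and Bicdl2 (0.91, 0.90 and 0.89), Notch1 like Mall, Mcam and Rapgef2 (0.86, 0.85 and 0.84), and Hes1 like Jun, Jund and Atf3 (0.90, 0.90 and 0.89). Jag2 was most like Sh2d5, 6720427I07Rik and Sema6d (0.88, 0.88 and 0.84), Jag1 like Itga9, Nhsl2 and Vcam1 (0.83, 0.80 and 0.80), and Notch2 like Gm14410, Ltbp1 and Apbb1 (0.82, 0.81 and 0.80). Hey1 and Heyl had looser matches, Orai1, Lipe and Cep120 (0.80, 0.80 and 0.79) and S100a3, Arhgdig and Fam20c (0.77, 0.77 and 0.75). Heyl reached at most 9.64 CPM in these sums, from 3 UMIs in MT1 fibroblast-like cells, under the 10 CPM added, so its matches say little.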

How the data were processed

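Drop-seq libraries of 2 mice were analysed as 1 deposited table of UMI counts, genes by cells, which the authors made with Drop-seq tools and STAR on mouse GRCm38.p6. Every cell held at least 800 genes and at least 1111 UMIs. Each cell was assigned to its library by the label in its column name, and no column was left unassigned. Members and gene lists were chosen with earlier results of these data known. Cells were clustered in scanpy 1.11.5 (3000 variable genes less 5 Notch pathway genes, 30 components, 20 neighbours, Leiden resolution 0.6), and a cluster was named only from at least 3 fixed markers at a log2 fold above 1. Areg, Cd3e and Nkg7 among the markers and Hes5 among the pathway genes were not analysed here. Raw counts were summed per library and fitted over all 12 libraries with edgeR 4.0.16 (filterByExpr, TMM, quasi-likelihood test, Benjamini-Hochberg over all genes, call at 0.05). Standard errors were taken as the size of the log2 change over the root of F. DESeq2 1.42.0 was an alternative. Library depth was 693333 to 14841414 UMIs. Levels by class are plain CPM for libraries with at least 10 cells. All members were named, and beside them the 2 largest called changes each way among other pathway genes and the 3 genes most like each member. Pairing came from the mouse given in the labels. Gene positions are from GENCODE M21.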

Additional observations from a re-analysis of the deposited data

Results flagged for a closer look

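The change between gland and tumor differed between the 2 mice for 5 members, by the test of the difference itself (mouse 1 minus mouse 2, log2, edgeR adjusted p under 0.05): Notch2 at -1.60, Jag1 at -1.54, Dll1 at 1.64, Hes1 at 1.52 and Hey1 at 2.95. Each mouse gives 1 gland and 1 tumor, so mouse and tumor cannot be told apart in these values. In MT1, the one group with 4 or more libraries, the gap from the highest or lowest library to the next, over the whole range, was at most 0.566 (Notch1), under Dixon's 95% critical value for 5 samples. Notch3 (0.551) and Notch4 (0.536) came next.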

How the results depend on the processing

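Of 43 log2 fold changes, 29 kept their direction and side of the threshold under every alternative that gave a value. Of 719 such values, 5 changed direction: in MT1 against MG1, Dll1 (1.92) and Jag1 (0.23) when tumor clusters were compared with gland luminal-like cells, which leaves out the basal-like cells, Notch1 (0.67) and Notch2 (0.59) without MG1 replicate 1, and, in the difference between the mice, Jag2 (-0.24) without MG2 replicate 2. Over the fits without 1 library these 3 ran from -0.86 to 0.67, from -0.45 to 0.59 and from -0.24 to 1.46. Of the rest, 688 were on the same side, 19 lost a call and 7 gained one. Without 1 library, 2 to 6 members were called in MT1 against MG1, lowest without MG1 replicate 1, where Hey1 had no UMI left in the gland and was given no fold. In endothelial-like cells 1 member was called with RLE factors, with libraries of at least 5 cells, and without the sub-clusters led by other genes (chosen after seeing the data), and 1 or 2 without 1 library. With the mouse as replicate, DESeq2 called 1 member and the fit with no replicate block 0, as did the fit with it. The cause of these changes was not tested. RLE factors moved the median of all genes by -0.12 in MT1 against MG1 and -0.15 in the difference, and changed the sign of no member. The 8 orders among gland classes held under every alternative clustering or cell assignment (the 3 orders of MT1 cluster 4 were not among them). Leaving out a library cannot break an order that holds in each, and says nothing of its stability. Jag2 did not pass the filter in the luminal comparison or in fits of 2 groups. Shares of cells as counted lie above the thinned ones by construction. Depth limits Jag2, Notch4, Heyl and all endothelial-like values, and 2 mice limit every comparison.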
